A study of Mus musculus with 12 samples.

Results

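The p53 target genes described here were 10 mouse genes chosen by symbol: Cdkn1a, Mdm2, Ccng1, Fas, Perp, Bax, Phlda3, Trp53inp1, Sesn1 and Btg2. These 10 members, and the lists read beside them, were chosen with earlier results of these data known. All 10 were found in both expression tables, which together listed 25952 gene symbols, and all 10 passed the filter on low values in both tissues. RNA sequencing compared E12.5 fetal livers of Rpt2G2A/G2A embryos, called G2A here, with those of WT littermates, and immortalized mouse embryonic fibroblasts (MEFs) of the same genotypes. All samples were labelled as untreated. The libraries used were 3 G2A and 3 WT livers, described as littermate pairs, and 2 G2A and 3 WT MEF libraries; the third G2A MEF sample was not analysed here. How the MEFs were immortalized, and whether the libraries of a genotype came from separate lines or cultures, is not given in the sources used here, so p-values measured only the spread between these samples.

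As background, Rpt2 is an ATPase of the proteasome base, encoded by Psmc1, and the G2A allele replaces the glycine to which an N-myristoyl lipid anchor is attached. The transcription factor p53 is itself a substrate of the proteasome: the ubiquitin ligase Mdm2 marks it for degradation, and DNA damage or other stress lets it accumulate. It then binds response elements built from a pair of half-sites and raises genes that halt the cell cycle, favour apoptosis or adjust metabolism, among them Mdm2 itself. Immortalized fibroblast lines often carry changes in the p53 or p19Arf genes, and the status of the lines here is not given.

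Sequence upstream of the members was searched for the p53 half-site consensus of 10 bases, which reads the same on both strands. The window was the 250 bases before each annotated transcription start in RefSeq (GRCm38.p6). Of the 10 members, 8 had an entry, and 5 of these had at least 1 half-site; Perp and Trp53inp1 were not in the promoter table. Of all 32851 entries, 7.13% held a half-site and 0.0639% held 2 of them at most 13 bases apart. Cdkn1a, upstream of 1 of its 2 annotated starts, was the only member with such a close pair. The windows of 60 bases with a half-site are shown because these letters are the best known sequence feature of p53 target genes, with the half-sites in capitals. The whole upstream window of Fas is shown as well, since the effect of G2A on Fas differed between the tissues; it held no match, which says only that these letters are not in this window.
Cdkn1a (chr17:29090892-29090951, plus strand): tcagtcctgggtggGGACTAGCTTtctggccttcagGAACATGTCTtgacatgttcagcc
Ccng1 (chr11:40755437-40755496, minus strand): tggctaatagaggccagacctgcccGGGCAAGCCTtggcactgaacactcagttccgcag
Mdm2 (chr10:117710910-117710969, minus strand): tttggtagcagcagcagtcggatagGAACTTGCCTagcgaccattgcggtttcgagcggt
Bax (chr7:45467065-45467124, minus strand): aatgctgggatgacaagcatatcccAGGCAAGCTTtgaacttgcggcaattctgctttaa
Sesn1 (chr10:41887241-41887300, plus strand): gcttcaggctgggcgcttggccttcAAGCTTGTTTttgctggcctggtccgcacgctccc
Fas (chr19:34290409-34290658, plus strand): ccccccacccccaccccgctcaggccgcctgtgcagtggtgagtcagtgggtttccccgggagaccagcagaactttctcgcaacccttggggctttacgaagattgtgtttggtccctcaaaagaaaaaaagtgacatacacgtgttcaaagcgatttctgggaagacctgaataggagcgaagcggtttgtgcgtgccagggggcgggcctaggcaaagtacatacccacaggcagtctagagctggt

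In mm9 (NCBIM37), the assembly named for the alignment, all 10 members are annotated as protein coding, and none overlaps another annotated gene. The submitters' notes also list mm10, and the annotation used for either expression table was not stated. Perp (chromosome 10, 18564877 to 18576879, plus strand), Sesn1 and Mdm2 lie far apart on chromosome 10, and Btg2 and Phlda3 both lie on chromosome 1. Fas is on chromosome 19 (34365149 to 34402260, plus strand) and Cdkn1a on chromosome 17 (29227924 to 29237667, plus strand).

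Liver values were FPKM, fragments scaled to gene length and to library total, which summed to 792987 to 840762 per library and carry no depth. MEF values, called normalized reads, were gene reads divided by 1 size factor per library, with 36415586 to 37695116 reads per library. The 10 hepatoblast markers and the 10 erythroid markers checked were above 0 in every liver library. In MEFs no fibroblast marker of 10 was at 0 in any library, and 4 of 10 erythroid markers (Epb4.2, Slc4a1, Hbb-b1 and Tspo2) were at 0 in all. Sums of the hepatoblast list in MEFs were 4613 and 7746 normalized reads in G2A libraries 1 and 2. In WT libraries 1, 2 and 3 they were 987, 633 and 32089, so WT MEF 3 had the highest sum. The mean log2 level of this list was ordered otherwise, at 4.89 and 2.34 in G2A libraries 1 and 2. It was 3.82, 3.86 and 2.36 in WT libraries 1, 2 and 3. Of the 10 markers, 8 were at 0 in at least 1 MEF library. In each tissue 1 library stood apart. Without G2A liver 3 the number of genes called at an adjusted p under 0.05 was 3152, against 3 with it. Without WT MEF 3 it was 3075, against 0 with it.

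The first comparison set the 10 mRNAs in G2A fetal liver against those in WT. Perp and Fas had the largest differences, both higher in every G2A liver than in any WT liver, at 2.44-fold and 2.18-fold on the log2(FPKM + 1) scale. With 0.1 added in place of 1, the log2 fold changes were 1.44 for Perp and 1.62 for Fas, so their order depended on this setting. Cdkn1a and Trp53inp1 had smaller positive differences and Btg2 and Bax negative ones. The 95% confidence intervals of Btg2, Mdm2, Ccng1, Phlda3 and Sesn1 included 0. By limma's moderated test on log2(FPKM + 1) none of the 10 passed an adjusted p of 0.05 over all 12938 genes, of which 2 were called higher (0.0155%) and 1 lower (0.00773%). At an unadjusted p under 0.05, 4 members were higher (Perp, Fas, Cdkn1a and Trp53inp1), against 9.07% of all genes, and 1 was lower (Bax), against 12.4%.

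Perp encodes a tetraspan membrane protein of desmosomes that also takes part in p53-dependent cell death. It was at 11.6, 16.1 and 10.7 FPKM in G2A livers 1, 2 and 3, against 3.83, 4.90 and 5.06 FPKM in WT livers 1, 2 and 3. The lowest G2A liver was thus above the highest WT liver. The log2 fold change was 1.29 (SE 0.17, limma adjusted p = 0.0902), and Perp ranked 30 of 12938 genes by p. Without G2A liver 3 it was 1.40 and passed the threshold (adjusted p = 0.0106), as did 3152 of the 12938 genes in that fit.

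Fas, the death receptor that starts caspase activation when bound by its ligand, was at 3.14, 5.27 and 2.72 FPKM in G2A livers 1, 2 and 3, and at 0.823, 1.02 and 1.54 FPKM in WT livers 1, 2 and 3. Its groups did not overlap either, and G2A liver 2 was highest for both genes. Fas met the filter of at least 1 FPKM in at least 3 liver libraries only with G2A livers counted, since WT liver 1 was below 1 FPKM. The log2 fold change was 1.12 (SE 0.23, limma adjusted p = 0.101). Without G2A liver 3 the value was 1.27, past the threshold (adjusted p = 0.0184), in the fit that called 3152 genes. Groups that did not overlap were found for 2 members on the higher side, against 11.8% of all genes, and for 1 member on the lower side, against 15.7%.

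In these bulk samples fewer cells of a type and less RNA per cell cannot be told apart, and markers of other cell types moved with Perp and Fas. Of 10 mesenchymal markers, 6 were higher without overlap in G2A liver, against the 11.8% of all genes, with summed levels of 1107 to 2318 FPKM in G2A and 484 to 728 FPKM in WT livers. Of 10 epithelial markers, 6 were higher without overlap, with sums of 199.9 to 513 FPKM in G2A and 177 to 199.5 FPKM in WT livers. None of these markers was at 0 in any liver. The mean log2 level of the epithelial list was 4.53, 5.19 and 3.69 in G2A livers 1, 2 and 3, against 3.86, 3.55 and 3.80 in WT livers 1, 2 and 3. In G2A liver 3 this mean lay within the WT range, and the sum of the list, 199.9 FPKM, lay just above the highest WT sum. Perp and Fas there were above their own WT ranges. So was the mean log2 level of the mesenchymal list, at 5.84 against 5.52, 5.07 and 5.53 in WT livers 1, 2 and 3. That of the endothelial list was 4.12 there, against 4.01, 3.90 and 3.95. Of 10 endothelial markers 5 were higher without overlap, with sums of 193 to 213 FPKM in G2A and 167 to 177 FPKM in WT livers. The part of these cell types in the Perp and Fas values was not tested.

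**Figure D1:**
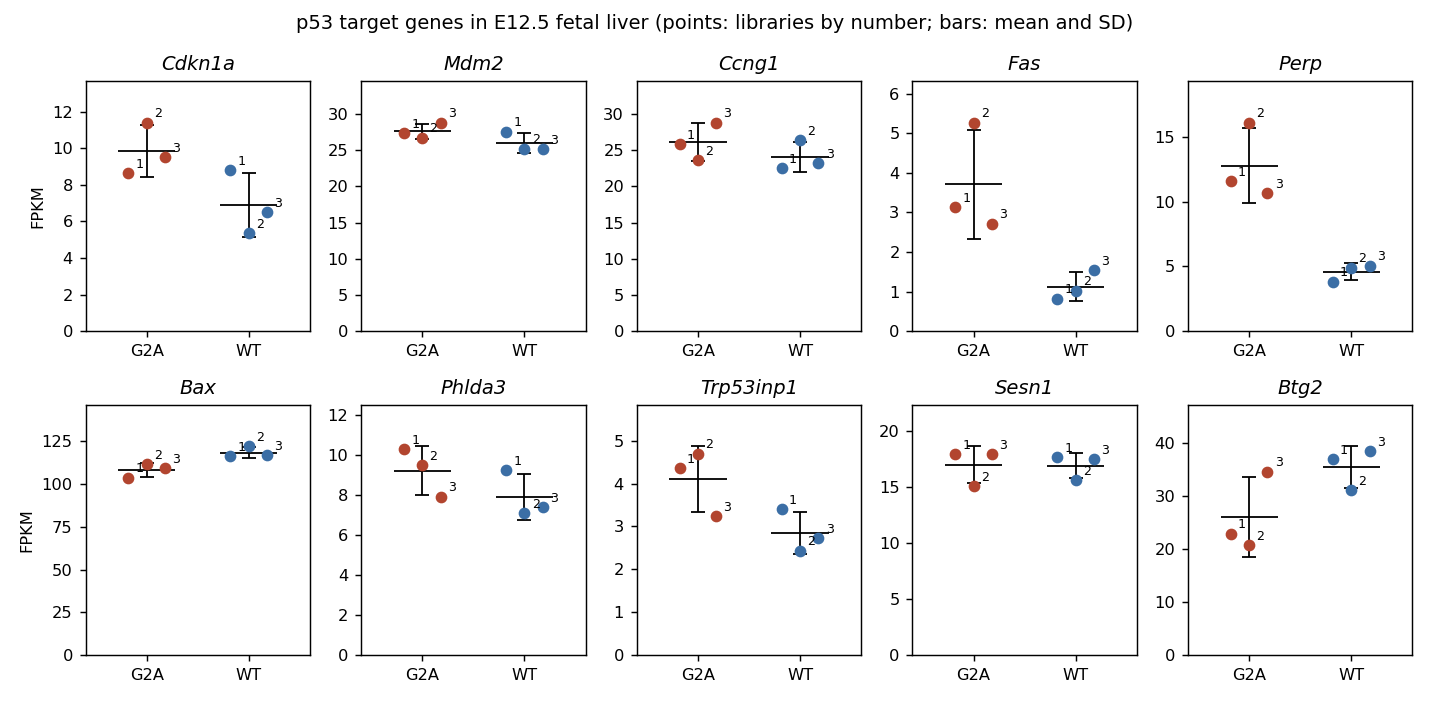
FPKM of the 10 p53 target genes in 3 G2A and 3 WT fetal livers, each gene on its own linear axis from 0, with points numbered by library and bars for the mean and SD. Perp and Fas are the genes with every G2A liver above every WT liver, and Bax has every G2A liver below every WT liver.

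Bax, the pore-forming effector of mitochondrial apoptosis, had a small difference of the other sign. It was at 104, 112 and 109 FPKM in G2A livers 1, 2 and 3, and at 116, 122 and 117 FPKM in WT livers 1, 2 and 3. The groups did not overlap, and the log2 fold change was -0.13 (SE 0.05, adjusted p = 0.224). Phlda3, which competes with the kinase Akt for membrane lipids, was at 9.22 ± 1.20 FPKM in G2A and 7.90 ± 1.16 FPKM in WT livers (SD, n = 3 each). Its groups overlapped (log2 fold change 0.20, adjusted p = 0.414).

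The cell cycle arrest genes differed from each other. Cdkn1a encodes p21, the inhibitor of cyclin-dependent kinases through which p53 halts the cell cycle, and was at 8.63, 11.4 and 9.52 FPKM in G2A livers 1, 2 and 3, against 8.78, 5.37 and 6.49 FPKM in WT livers 1, 2 and 3. The groups overlapped through WT liver 1, and the log2 fold change of 0.48 did not pass (SE 0.18, adjusted p = 0.201). Btg2, an antiproliferative protein that speeds the removal of mRNA tails, was at 23.0, 20.7 and 34.7 FPKM in G2A livers 1, 2 and 3, against 37.0, 31.1 and 38.5 FPKM in WT livers 1, 2 and 3. G2A livers 1 and 2 were below all WT livers and G2A liver 3 was within their range (log2 fold change -0.46, SE 0.20, adjusted p = 0.243). Without G2A liver 3 the log2 fold change of Btg2 was -0.67 and passed the threshold (adjusted p = 0.0152), as 1 of 3152 genes called. That of Cdkn1a was 0.49 without it (adjusted p = 0.125).

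The feedback genes had small differences. Mdm2 was at 27.6 ± 1.07 FPKM in G2A and 26.0 ± 1.37 FPKM in WT livers, a log2 fold change of 0.085 with a 95% confidence interval of -0.069 to 0.24. Ccng1, cyclin G1, which recruits a phosphatase to Mdm2, was at 26.1 ± 2.61 and 24.0 ± 2.07 FPKM in G2A and WT livers (SD, n = 3 each), with an interval of -0.12 to 0.35 around a log2 fold change of 0.11. For both genes the intervals left out a doubling.

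Of the stress and metabolism genes, Trp53inp1, a nuclear protein linked to autophagy and to p53 phosphorylation, was at 4.37, 4.70 and 3.24 FPKM in G2A livers 1, 2 and 3, against 3.40, 2.43 and 2.73 FPKM in WT livers 1, 2 and 3. The groups overlapped through G2A liver 3 and WT liver 1 (log2 fold change 0.40, SE 0.15, adjusted p = 0.21). Without G2A liver 3 the log2 fold change was 0.53 and passed (adjusted p = 0.0364), as 1 of the same 3152 genes. Sesn1, a sestrin that restrains the growth kinase mTORC1, was at 17.0 ± 1.64 FPKM in G2A and 17.0 ± 1.15 FPKM in WT livers (SD, n = 3 each; log2 fold change 0.0032, interval -0.22 to 0.23). In all, 8 members had a log2 fold change above 0, against 52.7% of all genes, and 2 had one below 0, against 47.3%; Sesn1 was below 0 with median-ratio scaling or quantile normalization. The median over the 10 members was 0.16, and over all genes 0.014.

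By level in FPKM, Bax was the most abundant member, at 108 FPKM in G2A and 118 FPKM in WT livers, and Fas the least, at 3.71 and 1.13 FPKM in G2A and WT livers. In G2A livers the order after Bax was Mdm2, Btg2, Ccng1, Sesn1, Perp, Cdkn1a, Phlda3 and Trp53inp1. Neighbours whose G2A ranges overlapped were Mdm2 with Btg2, Btg2 with Ccng1, Sesn1 with Perp, Perp with Cdkn1a, Cdkn1a with Phlda3, and Trp53inp1 with Fas. In WT livers the order after Bax was Btg2, Mdm2, Ccng1, Sesn1, Phlda3, Cdkn1a, Perp and Trp53inp1. Mdm2 with Ccng1 and Phlda3 with Cdkn1a were the overlapping neighbours there. Perp was thus eighth of the 10 in WT livers and sixth in G2A livers.

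The second comparison asked the same of MEFs. All 10 members had a log2 fold change below 0 in G2A MEFs, against 48.4% of all genes below and 51.6% above 0, and Cdkn1a and Ccng1 turned above 0 without WT MEF 3 or without G2A MEF 1. Fas and Perp had the clearest differences, 0.359-fold and 0.399-fold of the WT level on the log2(value + 1) scale. By limma no member passed over 13241 genes, and no gene of the table did (0% called higher and 0% lower). At an unadjusted p under 0.05, 2 members were lower (Perp and Fas), against 7.48% of all genes, and none higher, against 6.9%. By edgeR's quasi-likelihood test on the whole reads 0 of 13261 genes passed (6.04% higher and 7.83% lower at an unadjusted p under 0.05, which are 801 and 1038 genes), and by DESeq2 389 were higher (2.93%) and 644 lower (4.86%), with Perp and Fas the members among the lower ones.

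Perp was at 87.8 and 118 normalized reads in G2A MEFs 1 and 2, against 221, 329 and 232 normalized reads in WT MEFs 1, 2 and 3. Both G2A libraries were below all WT libraries, and the log2 fold change was -1.33 (SE 0.31, limma adjusted p = 0.269, DESeq2 adjusted p = 0.00575). Fas was at 68.0 and 99.0 normalized reads in G2A MEFs 1 and 2, against 223, 169 and 324 in WT MEFs 1, 2 and 3. Its groups did not overlap either (log2 fold change -1.48, SE 0.39, limma adjusted p = 0.277, DESeq2 adjusted p = 0.0183). Without WT MEF 3 the log2 fold changes by limma were -1.40 for Perp (adjusted p = 0.0241) and -1.23 for Fas (adjusted p = 0.0353), both past the threshold. That fit called 3075 of the 13241 genes, 1525 of them lower.

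Trp53inp1 and Bax were the other members whose groups did not overlap, so that 4 were lower without overlap, against 18% of all genes, and none higher, against 18.9%. Trp53inp1 was at 113 and 175 normalized reads in G2A MEFs 1 and 2, against 232, 216 and 1293 in WT MEFs 1, 2 and 3. WT MEF 3 was 5.58 times the next library, and without it the log2 fold change was -0.66, against -1.50 with all libraries (adjusted p = 0.134 and 0.455). Bax was at 2813 and 2774 normalized reads in G2A MEFs 1 and 2, against 2890, 3725 and 3147 in WT MEFs 1, 2 and 3 (log2 fold change -0.21, SE 0.14, adjusted p = 0.508).

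WT MEF 3 was the highest library for 7 of the 10 members, namely Cdkn1a, Mdm2, Ccng1, Fas, Phlda3, Trp53inp1 and Btg2, and it was the highest for 29.2% of all genes. Cdkn1a was at 2513 and 3618 normalized reads in G2A MEFs 1 and 2, against 1919, 3253 and 6257 in WT MEFs 1, 2 and 3. Both G2A libraries lay inside the WT range, and the log2 fold change of -0.17 (SE 0.51, adjusted p = 0.892) had an interval of -1.45 to 1.11. Ccng1 had the same arrangement, at 4809 and 6917 normalized reads in G2A MEFs 1 and 2, against 4241, 6068 and 9008 in WT MEFs 1, 2 and 3 (log2 fold change -0.091, adjusted p = 0.916). Without WT MEF 3 the values were 0.27 for Cdkn1a and 0.19 for Ccng1.

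Of the remaining members, Phlda3 was at 2943 ± 326 normalized reads in G2A (n = 2) and 4099 ± 977 in WT MEFs (n = 3), a log2 fold change of -0.45 (SE 0.23, limma adjusted p = 0.419). Btg2 was at 768 ± 74.7 and 1213 ± 645 normalized reads in G2A and WT MEFs, and its log2 fold change was -0.53 with all libraries and -0.13 without WT MEF 3. Mdm2 was at 4279 ± 109 and 5043 ± 842 (log2 fold change -0.22) and Sesn1 at 1139 ± 118 and 1377 ± 248 normalized reads in G2A and WT MEFs (-0.26). The groups of these 4 genes overlapped. Without WT MEF 3 the log2 fold change was -0.29 for Phlda3 and -0.098 for Mdm2. The median over the 10 members was -0.36, and over all genes 0.015. Of 10 fibroblast markers 6 were lower without overlap in G2A MEFs, against 18% of all genes, with sums of 529965 to 530867 normalized reads in G2A and 695587 to 1243300 in WT MEFs, and the part of these cells in the members' values was not tested.

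**Figure D2:**
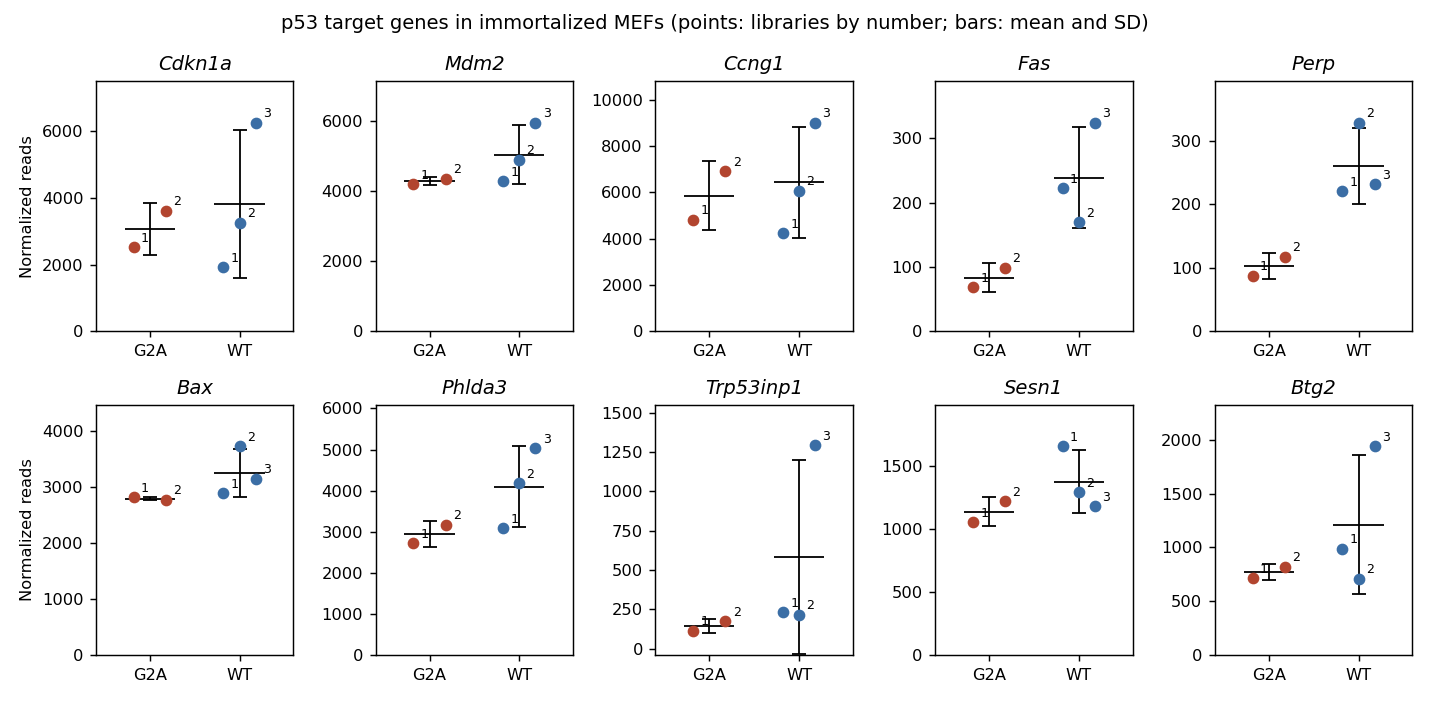
Normalized reads of the 10 p53 target genes in 2 G2A and 3 WT MEF libraries, each gene on its own linear axis, with points numbered by library and bars for the mean and SD (for Trp53inp1 in WT the SD bar reaches below 0). Perp and Fas have both G2A libraries well below all WT libraries, and WT MEF 3 is the highest point for 7 genes.

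Per kilobase of merged exons, the most abundant member was Bax in G2A MEFs, at 2087 normalized reads per kilobase, and Phlda3 in WT MEFs, at 2629. Phlda3 and Bax had overlapping ranges in WT MEFs, from 1977 to 3227 and from 2159 to 2782. Trp53inp1, Fas and Perp were the 3 lowest in both genotypes. Their means were 22.3, 46.4 and 54.0 normalized reads per kilobase in G2A MEFs and 89.6, 133 and 137 in WT MEFs.

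The third comparison set the G2A effect in liver against that in MEFs, as the log2 fold change in liver minus that in MEFs, tested against the standard errors of both; the tissues share no library. Perp and Fas differed, each higher in G2A liver and lower in G2A MEFs. The difference was 2.61 for Perp (95% interval 1.81 to 3.42, adjusted p = 0.0283) and 2.60 for Fas (1.58 to 3.62, adjusted p = 0.0352). Among 10818 genes tested, 145 passed in this direction (1.34%) and 94 in the other (0.869%). Perp was above its WT range in 3 of 3 G2A livers and below it in 2 of 2 G2A MEFs, and so was Fas. Both calls were lost without WT MEF 1 (adjusted p = 0.102 for Perp and 0.147 for Fas). Most calls of the test were lost there: 11 genes passed, against 239 with all libraries. Both calls were also lost without G2A MEF 1 or without G2A MEF 2, where 1 G2A library remained. The differences of Perp and Fas stayed between 2.33 and 2.87 whichever library was left out. Fas also missed the threshold without WT liver 2 (adjusted p = 0.0532), without G2A liver 1 (0.051) and without G2A liver 2 (0.0598). In these fits 60, 50 and 35 genes passed.

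The other 8 members did not pass this test. Trp53inp1 had a difference of 1.90 (interval -0.25 to 4.06, adjusted p = 0.254), which became 1.06 and passed without WT MEF 3 (adjusted p = 0.0321). Without that library 3260 of the 10818 genes passed. Phlda3 had 0.65 (0.055 to 1.25, adjusted p = 0.177) and Cdkn1a 0.65 (-0.64 to 1.93, adjusted p = 0.499). For Mdm2, Sesn1, Ccng1, Bax and Btg2 the differences lay between 0.073 and 0.31. All 10 differences were above 0, against 48.8% of all genes above and 51.2% below; those of Ccng1, Bax and Btg2 turned below 0 without 1 or another library. The median difference was 0.48 over the members and -0.015 over all genes.

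**Figure D3:**
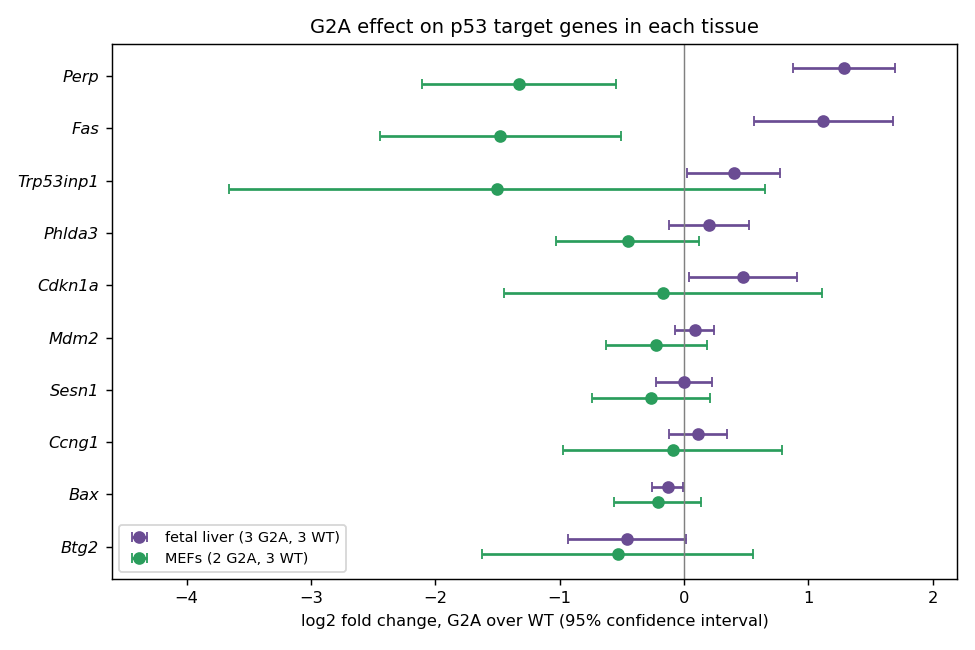
Log2 fold changes of G2A over WT for the 10 p53 target genes in fetal liver (purple, 3 G2A and 3 WT) and MEFs (green, 2 G2A and 3 WT), with 95% confidence intervals from limma, ordered by the difference between tissues. For Perp and Fas the intervals lie on opposite sides of 0, and for the other 8 genes the intervals of the tissues overlap.

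**Figure D4:**
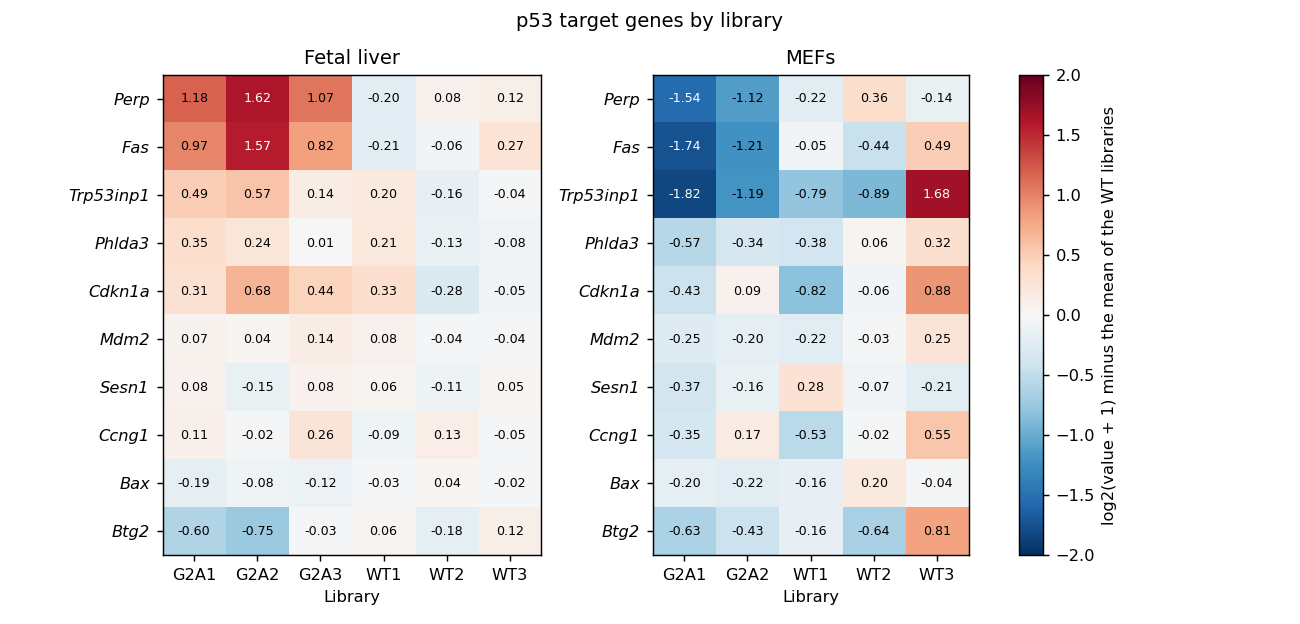
Level of each p53 target gene in each library as log2(value + 1) minus the mean of the WT libraries of the same tissue, with G2A libraries left of WT libraries. Perp and Fas lie 0.82 to 1.62 above the WT mean in the 3 G2A livers and 1.12 to 1.74 below it in the 2 G2A MEF libraries, and WT MEF 3 is 1.68 above it for Trp53inp1.

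The gene of p53 itself and its regulators were read beside the targets. Trp53 was at 139, 131 and 128 FPKM in G2A livers 1, 2 and 3, against 142, 152 and 140 FPKM in WT livers 1, 2 and 3 (log2 fold change -0.12, adjusted p = 0.274). In MEFs it was at 12854 and 11140 normalized reads in G2A libraries 1 and 2, against 6950, 9321 and 9867 in WT libraries 1, 2 and 3 (log2 fold change 0.47, adjusted p = 0.348). The groups did not overlap in either tissue, with Trp53 lower in G2A livers and higher in G2A MEFs, the reverse of Perp and Fas; the difference of -0.60 did not pass (adjusted p = 0.14). An mRNA level says nothing of the amount of p53 protein. Mdm4, the partner of Mdm2 that blocks p53 activity, was at 14.7 ± 0.385 FPKM in G2A and 12.8 ± 0.968 FPKM in WT livers, without overlap (SD, n = 3 each; log2 fold change 0.19, adjusted p = 0.221). In MEFs Mdm4 was at 1823 and 2159 normalized reads in G2A and at 2329, 2016 and 3360 in WT libraries.

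Of 12 genes in the list of p53 and its regulators, 9 were tested in liver and 11 in MEFs, and none passed by limma in either, nor by edgeR or DESeq2 in MEFs. At an unadjusted p under 0.05 by limma, 1 was higher in liver, against 9.07% of all genes, and 1 lower, against 12.4%. In MEFs 1 was higher, against 6.9%, and 0 lower, against 7.48%. Chek2, a kinase of the DNA damage response, was at 18.1, 17.6 and 20.6 FPKM in G2A livers, against 22.6, 24.6 and 25.5 FPKM in WT livers (log2 fold change -0.35, adjusted p = 0.114). Ppm1d, a phosphatase that is a p53 target and inhibitor, had a log2 fold change of -0.19 and the p53-binding repair factor Trp53bp1 -0.19 in liver. In MEFs Chek1, a checkpoint kinase, was at 1627 and 1667 normalized reads in G2A and at 1372, 1338 and 1370 in WT libraries (log2 fold change 0.28, adjusted p = 0.337). Trp63, a relative of p53, was at 20.7 and 14.7 normalized reads in G2A and at 321, 42.8 and 38.5 in WT MEFs (-2.16, adjusted p = 0.402), and Trp53bp1 had a log2 fold change of 0.28. Psmc1, which carries the allele, was at 151, 145 and 161 FPKM in G2A and at 178, 181 and 178 FPKM in WT livers, and at 10658 and 10913 normalized reads in G2A and 7393, 8589 and 6485 in WT MEFs. By limma neither passed (adjusted p = 0.114 in liver and 0.282 in MEFs), and by DESeq2 Psmc1 passed as higher in G2A MEFs (log2 fold change by limma 0.54, DESeq2 adjusted p = 0.0256). The G2A base change itself cannot be seen in gene totals.

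A further 33 p53 targets outside the 10 gave 31 tested in liver and 32 in MEFs. The list was chosen with earlier results of these data known, so its counts are a description and not independent support. None passed by limma in either tissue or by edgeR in MEFs, and 2 passed by DESeq2 in MEFs, Ephx1 and Rprm, both lower in G2A. In liver 24 of 31 had a log2 fold change above 0 (median 0.14), against 52.7% of all genes. At an unadjusted p under 0.05 there were 8 higher, against 9.07% of all genes, and 4 lower, against 12.4%. In MEFs 24 of 32 were below 0 (median -0.23), against 48.4% of all genes, with 1 higher (6.9% of all genes) and 4 lower (7.48%) at an unadjusted p under 0.05. Of 30 tested in both tissues, 18 were above 0 in liver and below 0 in MEFs, against 30.4% of all 10818 genes, and 1 was the other way round, against 30.2%. For the difference between tissues, 3 of 28 passed, against 1.34% of all genes in this direction, which is that of Perp and Fas: Sfn (2.80, adjusted p = 0.0382), Rprm (3.30, adjusted p = 0.0486) and Ephx1 (1.02, adjusted p = 0.0382). In liver the groups of Rprm (log2 fold change 0.035) and Ephx1 (0.22) overlapped, so only Sfn was clearly higher there. How these 3 calls depended on single libraries was not examined.

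Sfn, the epithelial checkpoint protein 14-3-3 sigma, was at 12.46, 17.98 and 4.32 FPKM in G2A livers 1, 2 and 3, against 1.66, 1.17 and 2.14 FPKM in WT livers 1, 2 and 3 (log2 fold change 2.07, adjusted p = 0.107). G2A liver 3 was lowest of the G2A livers and still above all WT livers. Rps27l, a ribosomal protein paralogue whose copies could share reads, Pml, the scaffold of nuclear bodies, and Pidd1, a caspase-activating adaptor, were lower without overlap in G2A liver. Their log2 fold changes were -0.41 for Rps27l (adjusted p = 0.125), -0.44 for Pml (0.125) and -0.36 for Pidd1 (0.129). In MEFs Rprm, a cell cycle inhibitor, was at 13.8 and 17.6 normalized reads in G2A, against 270, 171 and 86.5 in WT libraries 1, 2 and 3 (log2 fold change -3.27, limma adjusted p = 0.269, DESeq2 adjusted p = 3.43e-05). Ephx1, an epoxide hydrolase, was at 2021 and 1855 in G2A, against 3681, 3301 and 3160 normalized reads in WT MEFs (-0.80, limma adjusted p = 0.269, DESeq2 adjusted p = 2.47e-07). Apaf1, the core of the apoptosome, and Tnfrsf10b, a death receptor of the TRAIL ligand, were also lower without overlap in G2A MEFs (-0.50 and -0.35, adjusted p = 0.313 and 0.317).

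**Figure D5:**
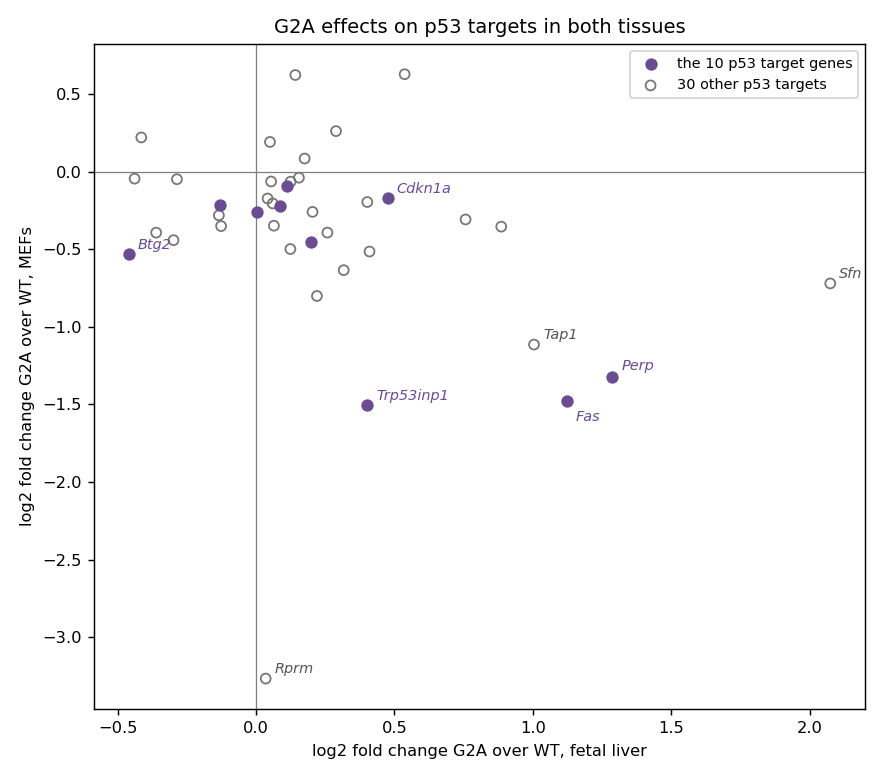
Log2 fold change of G2A over WT in fetal liver (horizontal axis) and MEFs (vertical axis) for the 10 p53 target genes (filled) and 30 other p53 targets tested in both tissues (open). Perp, Fas and Sfn lie to the lower right, above 0 in liver and below 0 in MEFs, and Rprm lies lowest, near 0 in liver; Tap1 was at 71.0 and 109 normalized reads in G2A MEFs and at 80.4, 44.9 and 1909 in WT MEFs 1, 2 and 3, so that its place below 0 rests on WT MEF 3.

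Mitotic genes that p53 lowers through p21 and the DREAM repressor complex were read as a group of 18. Earlier results of these data were known when this list was chosen, so its counts too are a description. In liver all 18 had a log2 fold change below 0 (median -0.31, against 0.014 over all genes), as had 47.3% of all genes. There were 14 lower without overlap, against 15.7% of all genes, and 14 lower at an unadjusted p under 0.05, against 12.4%; none passed by limma over all genes. In MEFs 17 of 18 were above 0 (median 0.18), against 51.6% of all genes, and 1 was higher at an unadjusted p under 0.05, against 6.9%; none passed by limma, edgeR or DESeq2. The 10 erythroid markers had a median log2 fold change of -0.45 in the same livers, with sums of 1468 to 2806 FPKM in G2A and 2125 to 3083 FPKM in WT; their part in the mitotic values was not tested.

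The profile of the members over the 6 liver libraries, taken as the mean of their standardized log2 levels, was 0.28, 0.23 and 0.45 in G2A livers 1, 2 and 3 and -0.016, -0.58 and -0.37 in WT livers 1, 2 and 3. The 5 other genes whose levels followed this profile most closely were Gm7334 (Pearson r = 0.994), Crlf2 (0.993), P2rx7 (0.989), Ccl2 (0.985) and Sgk1 (0.978). These values describe 6 libraries, which also share a genotype split, and 24 of the genes tested had r above 0.95.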

How the data were processed

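Total RNA was sequenced from fetal livers and immortalized MEFs. Per the labels' protocols, reads were cut to a length of 50 bp and aligned to mm9 with TopHat2 2.1.1; the submitters' processing notes also list Cufflinks 2.2.1 and mm10. The liver values are FPKM made by the authors; the unit is inferred from the listed Cufflinks and from the values, since no header gives it. The MEF values are a normalized signal per gene as deposited: all values came out whole within 0.01 after division by the smallest value of the library, so each column holds whole reads over 1 size factor (0.958 to 1.06). No annotation, counting tool or strand setting was stated.

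For each table, limma 3.58.1 (R 4.3.3) compared genotypes on log2(value + 1) by its moderated test with a variance trend, with Benjamini-Hochberg adjustment over all genes tested and a threshold of 0.05. Genes had at least 1 FPKM in at least 3 liver libraries, or at least 10 normalized reads in at least 2 MEF libraries. Effects were compared between tissues by the difference of log2 fold changes, with Satterthwaite degrees of freedom. edgeR 4.0.16 (quasi-likelihood, TMM) and DESeq2 1.42.0 were run on the recovered reads as alternatives, and the methods were tested on simulated data. In simulated MEF data with a log2 change of 1, limma and edgeR called none of the changed genes. DESeq2 called some of them together with many unchanged genes. At a log2 change of 3 each method called most of the changed genes. DESeq2 made more false calls than edgeR on the same simulated counts. The limma values came from a separate simulation on the log2 scale, so limma cannot be ranked against them. The members and lists were chosen with earlier results of these data known. Named genes were the members, Trp53, Mdm4, Psmc1, and from both pathway lists those past the threshold or the 4 with the smallest p in each tissue; genes past the test between tissues were added after their values were seen. Older symbols in the tables (Pidd1 as Lrdd and Tigar as 9630033F20Rik in liver) were matched through RefSeq, and these 2 genes were not in the test between tissues. Promoter sequences came from RefSeq (GRCm38.p6), whose coordinates are not those of mm9.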

Additional observations from a re-analysis of the deposited data

Results flagged for a closer look

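For the difference between tissues, 2 of the 10 p53 target genes passed an adjusted p of 0.05, both above 0, against 1.34% of all genes. For Perp the liver minus MEF difference of log2 fold changes was 2.61 (adjusted p = 0.0283), from 1.29 in liver and -1.33 in MEFs. For Fas it was 2.60 (adjusted p = 0.0352), from 1.12 in liver and -1.48 in MEFs. Every G2A liver was above every WT liver and every G2A MEF library below every WT MEF library for both genes. Neither gene passed this test without WT MEF 1, and Fas did not pass it without a filter on low values (adjusted p = 0.0584). With the filter, Fas was tested in liver only because the G2A livers, where it was higher, were counted. Other omissions that lost a call are given with the third comparison.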

How the results depend on the processing

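In liver 0 members were called under pseudocount 0.1, no filter, a stricter filter, median-ratio scaling, quantile normalization, no variance trend and the replicate block. Library weights gave 6 members and 6057 genes. Leaving out 1 library gave 0 to 4 members and 2 to 3152 genes. In MEFs 0 members were called with all of these but the replicate block (2 members, 3707 genes) and library weights (3 members, 6124 genes); DESeq2 called 2 and 1033, edgeR 0 and 0, and leaving out 1 library 0 to 2 and 0 to 3075. Between tissues 2 members and 239 genes were called. There were 1 and 29 without a filter, 1 and 217 with a stricter one, 4 and 3690 with the replicate block (which added Phlda3, adjusted p = 0.0211, and Trp53inp1, 0.0153), and 0 to 3 and 2 to 3260 without 1 library. Fas and Trp53inp1 did not pass the stricter filter in liver, so 8 members were tested there and Fas was not tested between tissues. The sizes depended on the pseudocount: with 0.1 the differences between tissues were 2.78 for Perp and 3.10 for Fas.

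Sesn1 in liver was -0.019 with median-ratio scaling and -0.023 with quantile normalization, and -0.051 to 0.081 without 1 library. In MEFs Cdkn1a was 0.27 with the replicate block, 0.51 with library weights and -0.58 to 0.27 without 1 library; Ccng1 was 0.19, 0.35 and -0.36 to 0.19. Between tissues, without 1 library, Ccng1 was -0.072 to 0.47, Bax -0.019 to 0.16 and Btg2 -0.33 to 0.39; with the block Ccng1 was -0.072 and Btg2 -0.33. The cause was not tested.

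The livers were littermate pairs per the labels, which do not say that equal numbers mark a litter, so the litter could not be used as a block. The numbers were not taken as pairs. Same-numbered livers had correlations of deviations of 0.18, -0.099 and 0.099, and livers of unlike number -0.22 to 0.13, which does not settle pairing. Same-numbered MEFs had 0.13 and -0.033. The deviations of the 2 G2A MEF libraries mirror each other, so the MEF values cannot show pairing. The block thus used a shared number alone. In MEFs it also removes WT MEF 3 from the comparison, since no G2A library has its number: the members' log2 fold changes with the block equal those without WT MEF 3. With 2 G2A MEF libraries, leaving out 1 assumes that the lone library varies like the WT libraries. FPKM carry no depth, so counting error in liver is unknown, which matters most for Fas. For the other genes named, edgeR and DESeq2 were the alternatives run, in MEFs; DESeq2 called Ephx1, Rprm and Psmc1.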
